A study of Mus musculus with 72 samples.

Results

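Intron sequence was followed out of the nucleus in mouse embryonic stem cells, gene by gene. A gene was taken as a member where its introns and its exons each held at least 20000 T counts, summed over 16 cytosolic libraries. A T count is a reference T position covered by a read, so that a single read adds many. Of 30099 genes in the tables, 7284 were members. Exons alone passed in a further 4991 genes and introns alone in 217. Members were ranked by T counts in introns over T counts in exons in the cytosol (the cytosolic ratio), and by this ratio over the same ratio in the nucleus. Since members were chosen by their T counts in these libraries and ordered by these ratios, the values are described here and not tested.

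The libraries came from E14TG2a, a single line of mouse embryonic stem cells grown in 2i + LIF medium, which keeps the cells undifferentiated. All cells received 4-thiouridine (4sU), a uridine analog built into RNA made during labeling and read as C in place of T after alkylation (T2C conversion). Digitonin released the cytosol, a second detergent released the membrane fraction and the nuclei were pelleted, beside unfractionated whole cells. RNA was selected for poly(A), and libraries were strand-specific. Labeling took 15, 20 or 30 min in replicates 1 and 2, 20, 40, 60 or 120 min in replicates 3 and 4 and 60 or 120 min in the last pair (5 and 6). This gave 18 libraries per fraction and 72 in all. The 120 min libraries of replicates 3 and 4, set aside in the study for effects of 4sU on expression, were left out of the ranking, which left 16 per fraction. The sample labels give 500 µM 4sU for all libraries of 15 to 40 min and 100 µM for all of 60 and 120 min. The study's methods differ for replicates 3 and 4, and also give 500 µM at 60 min. At 60 min the cytosolic conversion rate was 5.83% and 7.57% in replicates 3 and 4, against 2.38% and 2.58% in replicates 5 and 6. Dose and replicate pair thus vary with labeling time, and no doses were compared. Replicates were separately passaged cultures of the same line.

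Introns are removed from most transcripts in the nucleus, during or soon after transcription. A transcript that keeps an intron is called intron-retaining, and in many such transcripts the intron is detained in the nucleus until it is spliced or the RNA is degraded. Intron sequence in a cytosolic library can also be annotated as intron for one transcript form and be exon for another, or belong to another gene that lies inside the intron.

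Introns also carry small RNAs. The RefSeq table of mouse miRNAs (GRCm38.p6) placed 307 miRNA hairpins inside 285 members on the same strand, and in 208 of these members the hairpin lay outside the exons. Among hosts of an intronic hairpin in this table, the one of highest cytosolic over nuclear ratio was Srebf2, a transcription factor that turns on cholesterol synthesis, in eighth place overall. Its intron on chromosome 15 holds Mir33, which yields both of these mature miRNAs (5′ to 3′, plus strand, chr15:82198127-82198147 and chr15:82198167-82198188), shown because Srebf2 is a host whose introns, counted together, are described here. Capitals mark the seed, bases 2 to 8.
mmu-miR-33-5p: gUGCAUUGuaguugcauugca
mmu-miR-33-3p: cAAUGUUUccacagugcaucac
The next hosts were Rabgap1l (Mir1927, named only), Sptan1 (cytosolic over nuclear ratio 1.49) and Sppl2a (1.28), whose intronic miRNAs have other seeds (Sptan1, plus strand, chr2:29995955-29995976 and chr2:29995996-29996018, and Sppl2a, minus strand, chr2:126902290-126902309).
mmu-miR-6997-5p: uAACAGGCuggagaggugcaga
mmu-miR-6997-3p: uCAAACCUuacccuccuguuucc
mmu-miR-3473g: cAAAAGUGaggcuggggaga
The median cytosolic over nuclear ratio was 0.230 in the 208 hosts, against 0.219 over all members.

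The fractions and the cells were checked against their markers. By their medians, all 10 nuclear-retained noncoding RNAs (such as Malat1) were higher in the nucleus, with a median cytosol over nucleus of 0.176 in reads per 1000000 (CPM). All 10 stable mRNAs (such as Gapdh) were higher in the cytosol, with a median of 1.75. Ranges over libraries overlapped in Gapdh (2827 to 3597 CPM in the cytosol, 1091 to 2916 in the nucleus), Pgk1, Ldha, Tubb5 and Eno1. The medians of Eno1 were 989 and 981 CPM. Among the noncoding RNAs the order was as follows. The ranges over libraries were separate in Malat1, Rian, Mirg and Kcnq1ot1. They overlapped in Neat1 (9.34 to 274 CPM in the cytosol, 136 to 531 in the nucleus), Firre (14.5 to 247 and 228 to 664) and Meg3. Overlap was also seen in Miat, Airn and Pvt1, whose medians were 23.7 and 26.5 CPM. Cytosolic libraries thus held varied amounts of nuclear-retained RNA. The 8 markers of embryonic stem cells summed to 3814 to 8444 CPM per library, and the 8 markers of differentiated cells to 2.61 to 20.9. The gene-level totals ran from 13185351 to 52975732 reads a library. The ratio of all intron to all exon T counts lay between 0.0953 and 0.136 in the cytosol of replicates 1 and 2, between 0.0345 and 0.05002 in replicates 3 and 4, and between 0.0675 and 0.102 in replicates 5 and 6. Replicates 3 and 4 thus lay below the other pairs.

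Introns were a minor part of most members' RNA in the cytosol. The median cytosolic ratio was 0.112, against 0.479 in the nucleus, 0.0985 in membranes and 0.270 in whole cells. Divided by the nuclear ratio, the cytosolic ratio had a median of 0.219, with quartiles of 0.146 and 0.368. The medians within replicate pairs were 0.269, 0.104 and 0.381, in the order of the replicate numbers. In 3612 members all 16 cytosolic ratios lay below all 16 nuclear ratios, in 3665 the ratios overlapped, and in 7 all cytosolic ratios lay above. Over all genes past the filter of the tests, 40.6% lay all below and 0.0731% all above. Among the 7 members above were B130055M24Rik, Sptbn1, Clock, Srebf2, Slc35b2 and Pam.

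**Figure D1:**
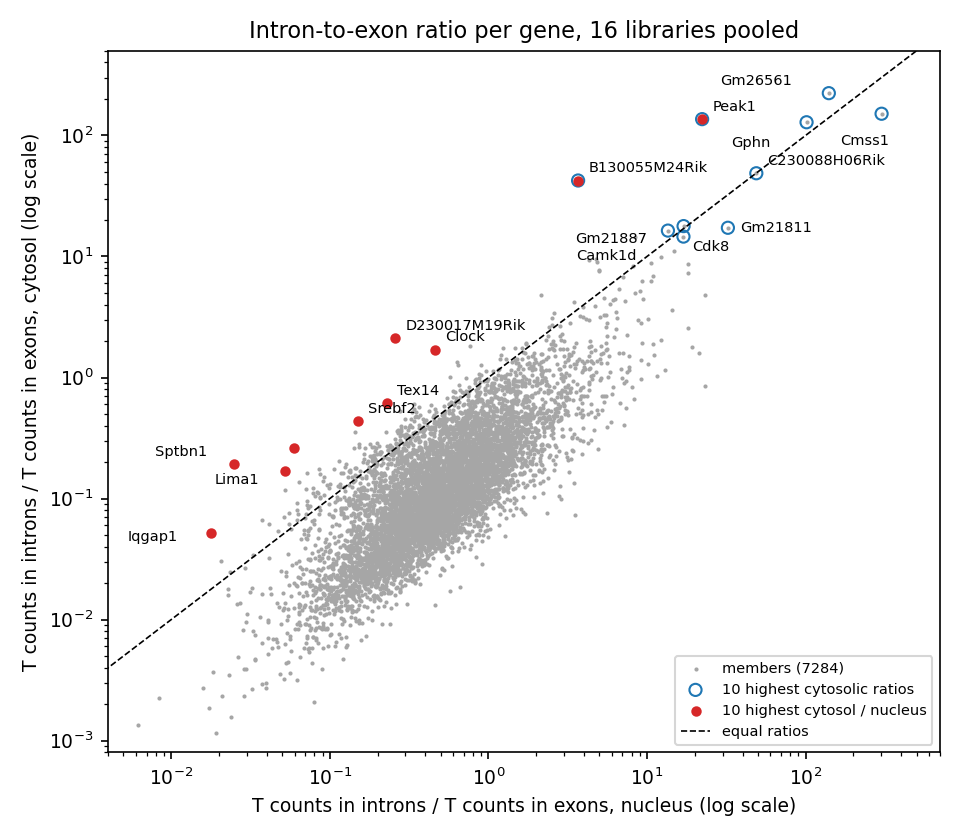
Intron-to-exon ratio of T counts in the nucleus (x, log scale) and the cytosol (y, log scale) for the 7284 members, with 16 libraries pooled per fraction. Most points lie below the dashed line of equal ratios, the 10 genes of highest cytosolic ratio (circles) range from 14.6 to 223, and 230 members lie above the line, led by B130055M24Rik at 11.5 times its nuclear ratio.

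The cytosolic ratio was over 1 in 242 members and the nuclear ratio in 1351. Of the 10 genes of highest cytosolic ratio, 6 had introns whose level was lowest in replicates 3 and 4 and highest in replicates 5 and 6. They were Gm26561, a long noncoding RNA gene (pooled ratio 223), Cmss1 (151), Peak1, a pseudokinase of the cytoskeleton (136), Gphn, which anchors inhibitory neurotransmitter receptors (128), Cdk8, a kinase of the Mediator complex (17.8), and Camk1d, a calcium-dependent kinase (16.3). The Peak1 introns (chromosome 9, 56201126 to 56418067, GRCm38) held 1314 to 2363 of every 1000000 T counts of a library (T CPM) in replicates 1 and 2, 127 to 880 in replicates 3 and 4, and 2257 to 4827 in replicates 5 and 6. The lowest of the 16 was thus in replicates 3 and 4 and the highest in replicates 5 and 6. The introns of Gm26561 went through the same order, with 2507 to 4556, 272 to 1629 and 4503 to 9190 T CPM. Together the 6 genes held 9.90% to 15.1%, 2.54% to 16.8% and 24.2% to 34.1% of all cytosolic intron T counts in the 3 pairs.

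Gm42418, a gene annotated over a ribosomal RNA repeat, followed the same order in the gene-level read counts, with 21949 to 42230, 2932 to 18516 and 42578 to 71478 CPM in the cytosol. It was looked at after the values of the 6 genes had been seen. The study's alignment kept reads with up to 10 locations. The part of ribosomal RNA or of multiply aligned reads in the introns of these 6 genes was not tested. Introns of Clock, by contrast, stayed between 78.2 and 128 T CPM in the same 16 libraries. Without the 6 genes, the cytosolic ratio of all introns to all exons was 0.0854 to 0.120, 0.0293 to 0.0473 and 0.0512 to 0.0682 in the 3 pairs.

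**Figure D2:**
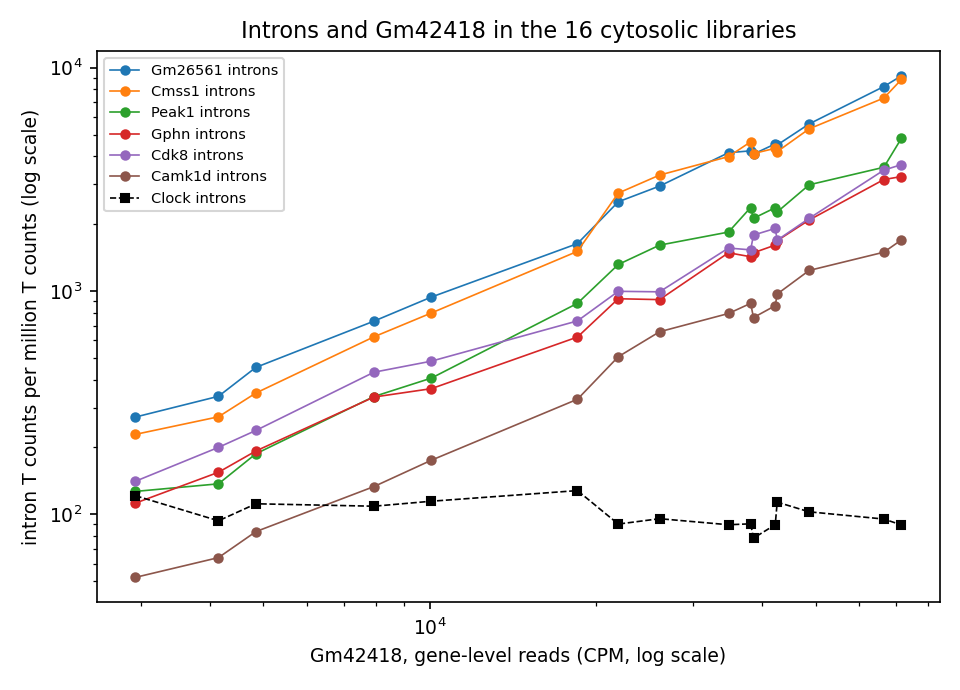
Intron level (y, T counts per 1000000 T counts, log scale) of 6 genes with a high cytosolic ratio and of Clock, against reads of Gm42418 (x, CPM, log scale), in the 16 cytosolic libraries, 1 point per library, joined in the order of Gm42418. The 6 genes are lowest where Gm42418 is low, over its range of 2932 to 71478 CPM, while Clock lies between 78.2 and 128 T CPM throughout.

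The other 4 genes of the leading 10 were C230088H06Rik (48.7), B130055M24Rik (42.4), Gm21811 (17.2) and Gm21887 (14.6). C230088H06Rik is a noncoding gene of chromosome 4 with 14 annotated pseudogenes inside its introns, and its ratio in the nucleus was 48.8. Gm21811, a pseudogene, and Gm21887 had lower ratios in the cytosol than in the nucleus, where they reached 32.3 and 16.96. Reads of such genes may be shared with near-identical copies, so that their counts are uncertain. B130055M24Rik alone among these 4 stood far above its nuclear ratio.

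A cytosolic ratio above the nuclear ratio was found in 230 members, in 60 of them within each replicate pair. A high ratio can come from more intron or from fewer exon counts, and both were seen. The level of each region is given in T CPM. In bulk fractions, fewer cells and less RNA per cell cannot be told apart, and these levels are relative to each library's total. The level of introns in the cytosol over the nucleus had a median of 0.249 over members, and that of exons 1.16. Of all 7284 members, 92 had a higher intron level in the cytosol than in the nucleus. Only 29 of the 230 genes were among them, and 201 were not.

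**Figure D3:**
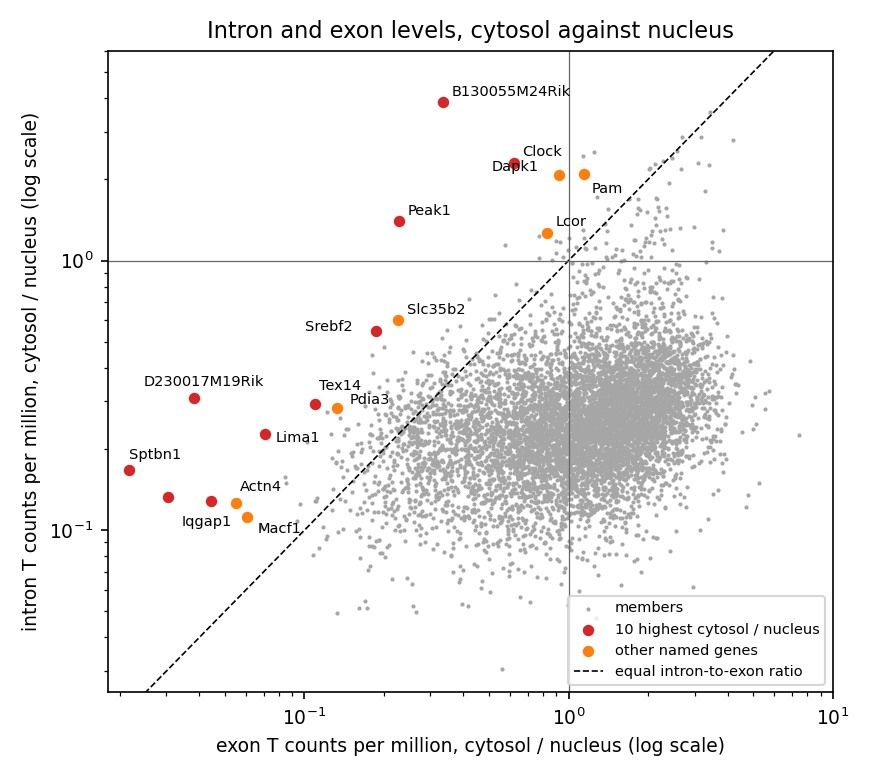
Level of introns (y) and of exons (x) in the cytosol over the nucleus, both on a log scale, in T CPM, for the members (16 libraries pooled per fraction). Points above the dashed line have a higher intron-to-exon ratio in the cytosol: B130055M24Rik, Clock, Pam, Dapk1, Peak1 and Lcor lie above an intron level of 1, while Sptbn1 and Iqgap1 lie there through exon levels of 0.0216 and 0.0441.

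Genes with both a higher ratio and more intron in the cytosol were led by B130055M24Rik. This noncoding transcript of chromosome 7 (127448636 to 127460360, plus strand) has 2 introns and overlaps Zfp689 on the other strand. Its cytosolic ratio was 24.8 at the lowest, 43.8 at the median and 79.5 at the highest of 16 libraries, and its nuclear ratio was 2.40, 4.06 and 6.68. The groups lay far apart, and every replicate pair gave a cytosolic over nuclear ratio near 10 (10.7, 12.1 and 9.29). Its intron level was 56.1 to 95.5 T CPM in the cytosol and 10.9 to 29.3 in the nucleus. Prr14 and the gene model Gm45110 overlap it on the same strand, and their part in its intron counts was not tested.

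Clock, the transcription factor at the core of the circadian oscillator, lies on the minus strand of chromosome 5 (76209868 to 76304792). Its cytosolic ratio ran from 1.24 over a median of 1.72 to 2.80, and its nuclear ratio from 0.372 over 0.462 to 0.634. No cytosolic library was as low as any nuclear one, and the pairs gave 3.23, 4.27 and 3.73. Its introns were 2.31 times as abundant in the cytosol as in the nucleus, whereas its exons were at 0.620. Among its 23 introns of 76563 bases in all lie a processed pseudogene, Ube2n-ps1, and the gene model Gm43658, both on the same strand, whose part in the intron counts was not tested.

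Pam, which amidates the ends of peptide hormones, had a cytosolic ratio of 7.05 to 14.0 and a nuclear ratio of 3.17 to 6.62. Introns made up most of its T counts in both fractions, and the groups did not overlap. Dapk1, a kinase of cell death, reached 2.72, 4.67 and 13.3 (lowest, median and highest) in the cytosol and 1.35, 2.43 and 2.91 in the nucleus, with a slight overlap. Lcor, a nuclear receptor corepressor, had ratios of 4.70 to 24.9 in the cytosol and 2.94 to 20.1 in the nucleus, which overlapped widely. The intron level in the cytosol over the nucleus was 2.09 in Pam, 2.08 in Dapk1, 1.27 in Lcor, 1.18 in Hlcs, the enzyme that attaches biotin to carboxylases, and 1.15 in Rnf24.

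**Figure D4:**
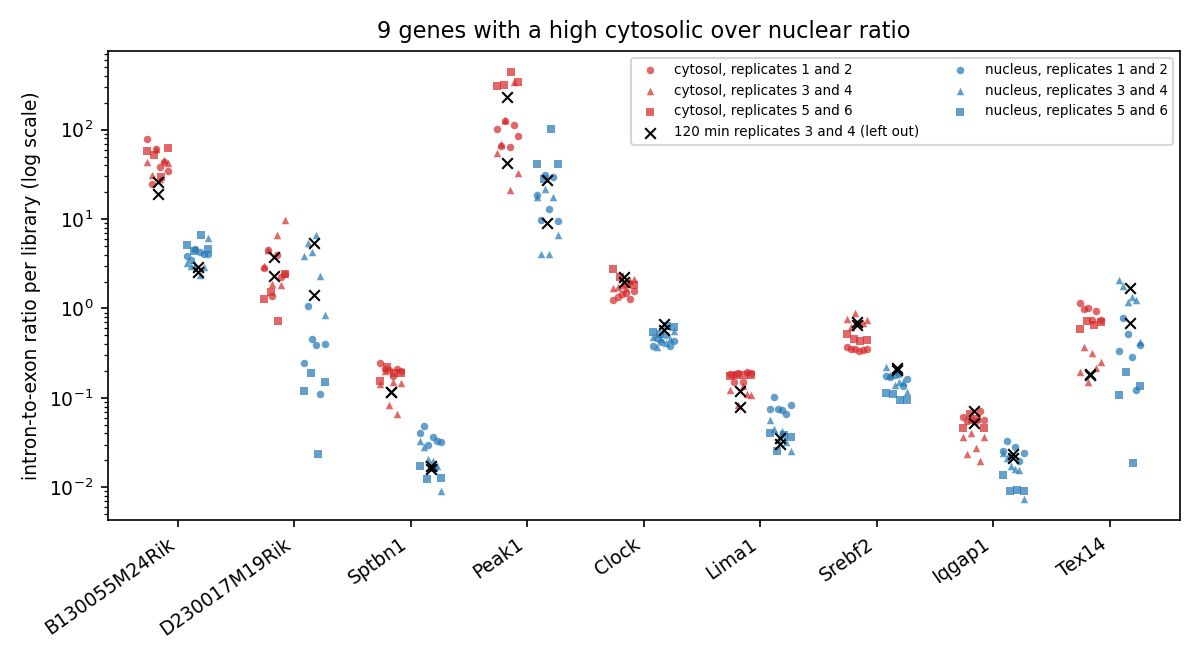
Intron-to-exon ratio in each cytosolic (red) and nuclear (blue) library (y, log scale) for 9 of the 10 genes of highest cytosolic over nuclear ratio, with a symbol for each replicate pair and black crosses for the left-out 120 min libraries. Clock, B130055M24Rik, Sptbn1 and Srebf2 show separate groups, with cytosolic ratios of 1.24 to 2.80 against nuclear ratios of 0.372 to 0.634 in Clock, while D230017M19Rik and Tex14 overlap.

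In a second set the introns were scarcer in the cytosol than in the nucleus, but the exons were scarcer still. Sptbn1, a beta-spectrin, had a cytosolic ratio of 0.0667, 0.190 and 0.246 (lowest, median and highest) and a nuclear ratio of 0.00915, 0.0244 and 0.0488, with no overlap. Its exons held 953 to 3073 T CPM in the nucleus and 10.8 to 62.1 in the cytosol, and its introns 16.3 to 79.3 and 0.720 to 14.6. The exon level in the cytosol was thus 0.0216 of the nuclear level, the lowest among the members, and the intron level 0.168.

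Lima1, an actin-bundling protein, had 0.0834 to 0.194 in the cytosol and 0.0255 to 0.101 in the nucleus. Iqgap1, a scaffold at the cell cortex, had 0.0197 to 0.0703 and 0.00748 to 0.0328. In the actin crosslinker Actn4 and the actin and microtubule linker Macf1 the exon level in the cytosol was 0.0551 and 0.0608 of the nuclear level, while the intron level was 0.126 and 0.112. In these genes the ratio rose from nucleus to cytosol although the relative levels of both regions were lower in the cytosol than in the nuclear fraction. Per the study's methods, the pellet held insoluble material besides nuclei before a sucrose cushion. The part of such material in these levels was not tested.

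Srebf2 and Slc35b2, which carries the sulfate donor PAPS into the Golgi, were in between. The cytosolic ratio of Srebf2 was 0.332, 0.452 and 0.884 (lowest, median and highest) and its nuclear ratio 0.0935, 0.152 and 0.222. Its introns, counted together, were at 17.01 to 42.5 T CPM in the cytosol and 39.6 to 77.6 in the nucleus, a level of 0.546, whereas its exons were at 0.187. In the membrane fraction the ratio of Srebf2 was only 0.0317 to 0.101, below every cytosolic library. Slc35b2, whose 4 introns span only 693 bases on chromosome 17 (45563874 to 45567671), had 0.4005 to 0.846 in the cytosol, 0.134 to 0.376 in the nucleus and 0.0926 to 0.188 in the membrane fraction. Srebf2 and Slc35b2 encode proteins made at the endoplasmic reticulum.

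Other leading genes depended on the replicate pair. Tex14, a gene of germ cell bridges with 12 annotated genes inside its introns, of which 8 are for snoRNAs, had cytosolic over nuclear ratios of 3.04, 0.188 and 11.6 in the 3 pairs. D230017M19Rik, a noncoding RNA with 3 small nuclear RNA genes on its strand, had 8.54, 1.34 and 17.9. Nodal, the TGF-beta family ligand of early embryos, had 2.99, 0.835 and 4.11. Ratios of these genes in the cytosol and nucleus overlapped. Of the leading 10 genes by cytosolic over nuclear ratio, 5 remained in the leading 10 within replicates 3 and 4, a comparison added after the data were seen.

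The same comparison was made in libraries that the ranking did not use, the 120 min libraries of replicates 3 and 4. With 2 cytosolic and 2 nuclear libraries, edgeR called a higher ratio in the cytosol (adjusted p under 0.05 and absolute log2 change over 0.5) in 20 of 7283 members tested, where 0.447% of all genes tested were called. A lower ratio was called in 6756 members, against 81.6% of all genes. The median log2 change was -3.16 over members and -3.01 over all genes. Relative to the median gene of each library, 1482 members were higher and 1741 lower, so that the 20 genes are those that went up against a general fall.

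Among these 20, B130055M24Rik rose by 3.04 ± 0.40 (log2 change ± SE, adjusted p = 5.1e-07), with ratios of 25.7 and 19.1 in the cytosol and 2.54 and 2.91 in the nucleus. Sptbn1 rose by 2.78 ± 0.40 (adjusted p = 1.38e-06), with 0.115 in each cytosolic library and 0.0175 and 0.0160 in the nuclear ones. Clock rose by 1.79 ± 0.36 (adjusted p = 0.000101), from 0.570 and 0.670 in the nucleus to 2.00 and 2.28. In each of these genes both cytosolic libraries lay above both nuclear libraries.

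Dapk1 (2.04 ± 0.40), Rnf24 (1.82 ± 0.41), Srebf2 (1.68 ± 0.37), Lima1 (1.58 ± 0.45), Iqgap1 (1.45 ± 0.39), Hlcs (1.36 ± 0.39), Slc35b2 (1.10 ± 0.40) and Pam (1.02 ± 0.35) were also called, with adjusted p-values of 9.89e-05 to 0.0164. Adcy3, an adenylyl cyclase (1.33 ± 0.47), and the noncoding 1700030C10Rik (1.26 ± 0.37) were called as well. Pam lost its call in limma (adjusted p = 0.0516), as did the 5 genes named next. Of the remaining 5 calls, Tcirg1, a proton pump subunit (1.47), the noncoding 1600020E01Rik (0.99), Ank3, an ankyrin (0.95), Macf1 (0.95) and Lcor (0.93) lost significance in a fit with the replicate as a block (adjusted p = 0.063, 0.054, 0.077, 0.062 and 0.053). Peak1 gained it there (2.91 ± 1.26, adjusted p = 0.12, against 2.66 and 0.00015 with the block). Tex14 went the other way and fell by 2.69 on the log2 scale (SE 0.45, adjusted p = 1.25e-05). Nodal (-0.03), Pdia3 (0.15) and Actn4 (0.37) did not pass the test.

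The membrane and whole-cell libraries, also unused by the ranking, gave another comparison over 16 libraries each. In the membrane fraction 15 of 7284 members had a higher intron-to-exon ratio than in whole cells and 6660 a lower one, against 0.341% and 88.2% of all genes tested with edgeR. The median log2 change was -1.46 over members and over all genes alike. Relative to the median gene, 1682 members were higher and 1367 lower.

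Sptbn1 had ratios of 0.112 to 0.271 in membranes against 0.0203 to 0.0967 in whole cells, a difference of 1.92 ± 0.23 (log2, adjusted p = 2.5e-09) with no overlap, higher in 16 of 16 cultures. Lima1 (1.27 ± 0.24), the nuclear pore protein Ranbp2 (0.93 ± 0.23), Ssh2, a phosphatase of cofilin (0.82 ± 0.15), Ank3 (0.78 ± 0.17) and Slc15a2, a peptide transporter (0.71 ± 0.17), were higher in 15 or 16 of 16 cultures. Clock was higher in 14 of 16 cultures (0.84 ± 0.20, adjusted p = 0.000247), with ratios of 1.05 to 4.01 in membranes against 0.613 to 1.76 in whole cells, but lost the call within replicates 3 and 4 (0.56, adjusted p = 0.11). Further calls were Lcor (1.08 ± 0.35), 1600020E01Rik (0.74 ± 0.18), Tex14 (0.64 ± 0.25), Zc3h13, a subunit of the m6A methyltransferase complex (0.62 ± 0.26), Nespas (0.60 ± 0.20) and the channel Trpm1. Calls were also lost within a pair by Lcor in replicates 1 and 2 (0.20, adjusted p = 0.498), Tex14 in replicates 3 and 4 (0.36) and 5 and 6 (0.64, adjusted p = 0.0939), and Slc15a2 in replicates 5 and 6 (0.37, adjusted p = 0.101). Zc3h13 (-0.12) and Nespas (-0.16) changed sign in replicates 5 and 6 without passing the test there.

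Trpm1 (2.49 ± 1.04, adjusted p = 0.0254) was higher in only 1 of the 13 cultures with a ratio and became lower with the replicate block (-1.06). Zc3h13 lost the call without replicate 2 (0.30), Nespas without replicate 2 or 3 (0.49 each) and Trpm1 without replicate 3 (0.59). Srebf2 was lower in the membrane fraction than in whole cells by 0.97 on the log2 scale (-0.97 ± 0.20, adjusted p = 2.68e-05), and so were Nodal (-1.40 ± 0.18), Pdia3, a disulfide isomerase of the endoplasmic reticulum (-1.37 ± 0.15), and Tcn2, a secreted carrier of vitamin B12 (-1.83 ± 0.20). B130055M24Rik (0.14 ± 0.32), Pam (-0.07 ± 0.14) and Dapk1 (0.19 ± 0.16) were not called. Of the 15 genes higher in the membrane fraction, 8 (53.3%) were among the 20 higher in the cytosol of the left-out libraries (40.0% of those), among them 1600020E01Rik, Ank3, Clock, Lcor, Lima1 and Sptbn1.

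The labeling gives the part of each region made since 4sU was added. The new share is the T2C count over the T count, divided by the library's conversion rate. Sequencing errors were not subtracted, so that shares of a few percent at short times include them, and shares can exceed 100%. The intron share in cytosol and nucleus was named beside the ratios in the rule, so that those fractions are described here and no p-values are given for them. Limits on size and adjusted p only sort their genes and are not read as tests. The membrane fraction was not used by the rule. Introns and exons of a gene share library and depth. In the cytosol the median new share of the members' introns was 6.54% ± 1.1 at 15 min (SD, n = 2), 16.02% ± 4.3 at 20 min (n = 4), 23.6% ± 1.8 at 30 min (n = 2), 43.6% ± 4.4 at 40 min (n = 2), 79.4% ± 23.5 at 60 min (n = 4) and 100.5% ± 2.3 at 120 min (n = 2). The exons rose from 1.495% ± 0.32 at 15 min to 34.8% ± 0.20 at 120 min. In the nucleus the introns went from 13.7% ± 1.2 to 94.5% ± 1.5 and the exons from 2.56% ± 0.60 to 41.2% ± 2.2. From 60 min on, cytosolic introns were thus new for the most part, with a lower mean share than nuclear introns at each time up to 60 min.

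In the membrane fraction, with the library as a block, edgeR called a higher new share in introns than in exons in 7073 of 7284 members, against 95.7% of all genes tested. As a description, the same limits were passed by 7022 members in the cytosol (93.9% of all genes) and 7064 in the nucleus (94.5%). The median log2 difference over members was 2.73 in the membrane fraction, 2.52 in the cytosol and 1.97 in the nucleus. Once each library was centred on its median, members split into 2456 higher and 1948 lower in the cytosol, 2532 and 2045 in the membrane fraction, and 2317 and 1653 in the nucleus. The largest differences in the cytosol were in the ribosomal protein genes Rps29 (5.83 ± 0.25) and Rps28 (5.65 ± 0.24), in Tomm7 of the mitochondrial import pore (5.75 ± 0.28), and in Ndufb6 (5.74 ± 0.27) and Atp5mpl (5.67 ± 0.28) of the respiratory chain and ATP synthase. In each of them the introns were newer in 16 of 16 libraries.

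The reverse, older introns than exons, was called in 18 members in the membrane fraction, against 0.306% of all genes tested. Peak1 (-3.85 ± 0.25, adjusted p = 7.14e-25), Gm26561 (-3.63 ± 0.41), Zfp791 (-3.18 ± 0.40), Lcor (-2.24 ± 0.26), Camk1d (-1.70 ± 0.35), Clock (-1.51 ± 0.21, adjusted p = 4.19e-10), C230088H06Rik (-1.35 ± 0.28), Gm6445 (-1.30 ± 0.21), Dapk1 (-0.75 ± 0.22) and Ssh2 (-0.73 ± 0.17) were among them, and Pam (-0.32 ± 0.22, adjusted p = 0.163) was not. Calls were lost within replicates 1 and 2 by Camk1d (-0.75, adjusted p = 0.0577), C230088H06Rik (-0.73, adjusted p = 0.287) and Dapk1 (-0.017, adjusted p = 0.963), and within replicates 5 and 6 by Gm6445 (-0.61, adjusted p = 0.0881). Without the block Gm6445 and Ssh2 lost theirs (adjusted p = 0.0598 and 0.0637), and in limma Dapk1 and Ssh2 (adjusted p = 0.163 and 0.47). Membrane introns of Clock were 21.2% ± 2.3 new at 120 min and its exons 76.1% ± 6.3 (n = 2).

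In the cytosol 24 members passed the same limits on size and adjusted p (0.376% of all genes) and in the nucleus 9 (0.204%), as a sorting and not a test. Of the 24, 16 were among the 18 of the membrane fraction (66.7% and 88.9%) and 8 among the 9 of the nucleus (33.3% and 88.9%). The largest difference was in Peak1 (-4.46 ± 0.47), whose cytosolic introns were 0.716% ± 0.11 new at 15 min and 2.52% ± 0.20 at 120 min, when its exons were 86.9% ± 12.3 new. Introns of Gm26561 (-3.26 ± 0.52), which had the same order of replicate pairs as Peak1, were 2.37% ± 0.033 new at 120 min. Camk1d (-1.54 ± 0.43) and Gphn (-1.14 ± 0.27), of the same 6 genes, were also past the limits. The other two had newer introns, Cdk8 by 3.65 ± 0.50 and Cmss1 by 0.51 ± 0.23, with introns 41.4% ± 1.4 and 4.53% ± 0.12 new at 120 min.

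Away from these 6 genes, the cytosolic differences were those of Zfp791, a zinc finger gene (-3.88 ± 0.34), Lcor (-1.92 ± 0.26), Pam (-1.53 ± 0.24), Gm6445 (-1.45 ± 0.23), Kcnk2, a potassium channel (-1.33 ± 0.45), Clock (-1.22 ± 0.21), Prdm11 (-1.19 ± 0.44), Dapk1 (-1.08 ± 0.25), C230088H06Rik (-1.04 ± 0.30), Rnf24 (-0.95 ± 0.34) and Ssh2 (-0.75 ± 0.18). The others were Bloc1s5, 1600020E01Rik, Gm14409, Gm26944, Znrf3, Oaz1-ps, Snhg15, Gm10778 and Gm26573, between -0.90 and -0.50. Within replicates 1 and 2 the difference fell short of the limits in Clock (-0.47), Camk1d (-0.38), C230088H06Rik and Snhg15 (-0.37 each), and Dapk1 and Gphn (-0.27 each), and within replicates 5 and 6 in Gm6445 (-0.52), Prdm11 (-0.12) and Snhg15 (-0.10). Rnf24, Kcnk2, Oaz1-ps, Gm26944, Gm10778, Gm26573 and Znrf3 also fell short in 1 or more pairs. In limma on differences of shares, Pam, Dapk1, Kcnk2, C230088H06Rik, Gphn, Ssh2, 1600020E01Rik, Gm14409 and Oaz1-ps fell short of the limit on adjusted p. Without replicate 3 or 4 the same was so of 1600020E01Rik (-0.61 and -0.65), Gm14409 (-0.62 and -0.59) and Znrf3 (-0.49 and -0.61), and Gm26944, Oaz1-ps and Gm26573 also fell short with single replicates left out (-0.66 to -0.84, -0.61 to -0.65, and -0.49 to -0.50).

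Clock introns in the cytosol were 1.76% ± 0.27 new at 15 min (n = 2), 10.6% ± 2.9 at 60 min (n = 4) and 25.8% ± 0.63 at 120 min (n = 2). Its exons in the same libraries were 1.81% ± 0.18, 46.2% ± 20.4 and 69.8% ± 2.0 new. In the nucleus the introns had reached 44.1% ± 4.9 by 40 min and stood at 43.7% ± 1.5 at 120 min, a higher mean than that of the cytosolic introns at each time. In the nucleus the difference between the introns and exons of Clock was 0.47 ± 0.19 on the log2 scale.

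Pam introns were 10.8% ± 0.34 new in the cytosol at 120 min and 14.0% ± 0.27 in the nucleus, against 23.4% ± 11.6 in the cytosolic exons. Dapk1 introns were 8.63% ± 2.4 new at 120 min and its exons 43.0% ± 5.4. Lcor introns were 21.004% ± 3.6 new and its exons 85.8% ± 16.5. In these 3 genes even the latest time left most of the cytosolic intron sequence unlabeled.

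**Figure D5:**
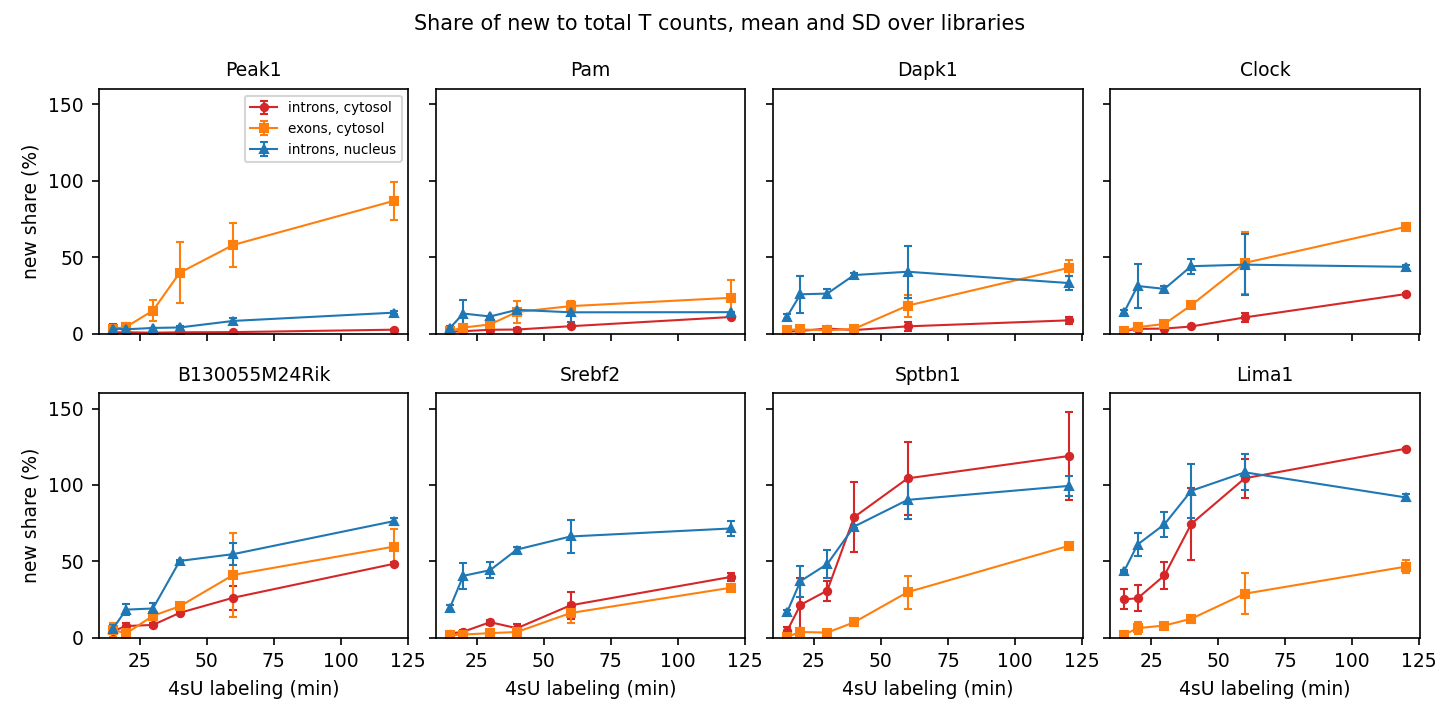
Share of new to total T counts (y, %) over labeling time (x, min) for cytosolic introns (red), cytosolic exons (orange) and nuclear introns (blue) of 8 genes, as mean and SD over 2 or 4 libraries. At 120 min cytosolic introns reached 2.52% in Peak1, 10.8% in Pam and 25.8% in Clock, all under the exons, and 119% in Sptbn1 and 124% in Lima1, above them. The times come from different replicate pairs.

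Cytosolic Sptbn1 introns were 4.43% ± 2.6 new at 15 min, 78.9% ± 22.8 at 40 min and 119% ± 28.7 at 120 min, against 60.1% ± 1.2 in exons at 120 min, with a log2 difference over all times of 2.22 ± 0.24 that turned to -0.26 relative to the median gene. In the membrane fraction the introns of Sptbn1 (1.99 ± 0.22), Lima1 (1.82 ± 0.21) and Iqgap1 (3.06 ± 0.25) were newer than the exons, beside the median of 2.73 over members. Relative to the median gene, Sptbn1 (-0.65) and Lima1 (-0.81) turned there, and Iqgap1 was at 0.44. Lima1 introns were 124% ± 0.55 new at 120 min, also above its exons (46.6% ± 4.2), with a difference that was likewise negative relative to the median gene (-0.20). Iqgap1 introns were at 104% ± 7.3 and exons at 35.7% ± 4.0.

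Srebf2 stood between the sets. Its cytosolic introns were 2.78% ± 0.64 new at 15 min, 21.3% ± 8.8 at 60 min and 39.9% ± 2.7 at 120 min, close to its cytosolic exons (1.68% ± 0.16, 16.2% ± 6.3 and 32.9% ± 1.1). Nuclear introns of Srebf2 were 19.6% ± 1.7 new at 15 min and 71.6% ± 4.8 at 120 min. In the membrane fraction its introns were newer than its exons by 2.46 ± 0.20 (adjusted p = 4.04e-20), and the difference was -0.18 relative to the median gene. The difference was 3.12 ± 0.16 in the nucleus and 0.74 ± 0.21 in the cytosol, where it was -1.68 relative to the median gene, 0.59 within replicates 3 and 4, 0.35 within replicates 5 and 6, 0.49 without the block and 0.43 at 40 to 120 min alone. In B130055M24Rik (48.5% ± 1.1 in introns, 59.7% ± 11.3 in exons at 120 min) and Slc35b2 (47.1% ± 1.6 and 64.8% ± 1.2) the differences in the cytosol were -0.19 ± 0.25 and -0.26 ± 0.28, and those in the membrane fraction did not pass the test (-0.11 ± 0.26 and 0.11 ± 0.25). That of Slc35b2 was 1.04 within replicates 1 and 2 and -1.24 within replicates 5 and 6.

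Of 33 splicing regulators and genes with detained introns, 32 were members, with a median cytosolic ratio of 0.158 and cytosolic over nuclear ratio of 0.254. The highest were Rsrp1, an arginine- and serine-rich protein (0.693), the splicing factor Srsf10 (0.563), the sugar transferase Ogt (0.527) and Prpf38b (0.482), none above 1. In the left-out libraries 0 of 32 were higher and 32 lower in the cytosol, where 81.6% of all genes were lower, and in the membrane fraction 0 were higher and 30 lower than in whole cells, where 88.2% of all genes were lower.

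Of 25 snoRNA host genes, 22 were in the tables and 18 were members (median cytosolic over nuclear ratio 0.219), led by Snhg3 (1.18), Snhg17 (0.831) and Snhg15 (0.820). In the left-out libraries 0 were higher and 15 lower, beside 81.6% lower over all genes. In the cytosol the share was past the limits with newer introns in 14, beside 93.9% over all genes, and with older introns in 1, Snhg15 (-0.68 ± 0.22). Of the 10 nuclear-retained noncoding RNAs, 5 were members (median 0.420), led by Meg3 (1.12), Firre (0.661) and Rian (0.420), with 0 higher and 3 lower in the left-out libraries. The 84 members among 91 cytosolic ribosomal protein genes had the lowest median cytosolic ratio of the lists apart from the stable mRNAs, 0.0140 against 0.00699, and all 84 were lower in the cytosol of the left-out libraries, again beside 81.6% of all genes, with Rpl37a at a cytosolic over nuclear ratio of 0.289. All 10 stable cytosolic mRNAs were members (median cytosolic over nuclear ratio 0.109), and all 10 were lower there as well. Of 8 stem cell markers 7 were members (0.151), and 0 of the 8 markers of differentiated cells.

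The annotation of the leading genes was compared as a description. An annotation model was found for 7272 members, of which 97.2% were protein coding, 0.949% long intergenic noncoding, 41.2% free of any overlapping gene, 11.0% with a pseudogene inside and 67.0% with an annotated retained-intron transcript. Of the 100 genes of highest cytosolic ratio, 58 were protein coding, 14 long intergenic noncoding, 29 free of overlap, 36 held a pseudogene and 29 had a retained-intron transcript. Their introns were longer, with a median of 47886 bases against 23638. The cytosolic ratio was not divided by length, so that a ranking by it favours genes with long introns. The difference in length therefore cannot be read as a trait apart from the ranking. Of the 100 genes of highest cytosolic over nuclear ratio, 94 were protein coding, 37 free of overlap, 23 held a pseudogene and 63 had a retained-intron transcript. Their exon level in the cytosol over the nucleus had a median of 0.212, against 1.16, and their intron level 0.319, against 0.249. The cytosolic over nuclear ratio is the intron level divided by the exon level. These medians therefore cannot be read as a trait apart from the ranking either. The new share of cytosolic introns at 60 and 120 min was below that of exons in 29 and 19 of these 100 genes, against 1.21% of members.

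At the threshold of 20000 T counts in introns, Fbxo10 and Mgat5 were just inside with 20006 each, and Plgrkt and Atp6v0a2 just outside with 19997 and 19996. Their cytosolic ratios were 0.453, 0.235, 0.103 and 0.113.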

How the data were processed

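RNA from cytosol, nucleus, membrane and whole cells was sequenced after 4sU labeling and iodoacetamide treatment (SLAM-seq). The authors deposited T counts and T2C counts, which tally covered and converted T positions, for the exons and introns of each gene and sample, a conversion rate per sample as a fraction, and HTSeq counts of reads per gene. Other deposited columns hold the authors' ratio of new to total RNA and were not used. The submitters' processing notes name STAR 2.7.6, HTSeq 0.11.1, RSEM 1.3.3 and mm10. Per the study's methods, introns were the gaps between exons, less the exons of other genes, and reads with up to 10 alignments were kept. HTSeq lines that name no gene held 30.4% to 48.8% of reads and were left out. Depth limits precision through counting error only in part, since T positions of a read are not independent.

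The members and gene lists were chosen with earlier results of these data known. Gene positions came from Gencode M21 (GRCm38), another release than the authors used. Intron T counts were tested with edgeR 4.0.16 (R 4.3.3; quasi-likelihood, Benjamini-Hochberg adjustment over all genes tested) with log(T exon + 1) as offset, at a mean of 200 or more intron and 400 or more exon T counts. T2C counts of introns and exons were tested with log(T + 1) as offset and the library as block, at means of 400 or more; in cytosol and nucleus these fits serve as a description, since the choice of members named that measure. A call required adjusted p below 0.05 with a log2 change beyond 0.5 in size. Fractions of the same culture share a replicate number: their deviations in ratio correlated with r of 0.114 to 0.683 (median 0.381, 16 of 16 pairs over 0.1) between membrane and whole cells, and -0.124 to 0.537 (median 0.255, 11 of 16) between cytosol and nucleus. Alternatives used limma 3.58.1, DESeq2 1.42.0, other filters, centring, pairs of replicates and omission of each replicate. Descriptions used python 3.11.15, pandas 2.3.3, numpy 2.4.6 and matplotlib 3.10.9. Named genes were the 10 highest by cytosolic ratio, by cytosolic over nuclear ratio, and by the latter among protein-coding genes free of overlap, the 5 largest share differences each way, the highest of each list, the genes at the threshold and those called against the general direction. Some genes that meet these rules are not reported here.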

Additional observations from a re-analysis of the deposited data

Results flagged for a closer look

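In 5 of 104 groups of 4 libraries checked over 25 genes and all genes together (4.81%), 1 library stood apart from the other 3. Chance flags about 1 in 20 groups. All 5 were libraries of replicate 3. In the cytosol at 60 min, replicate 3 had the highest ratio of Tcirg1, 1.84 against 0.459 to 0.542. In the nucleus at 20 min, replicate 3 had the highest intron-to-exon ratio of all genes, 0.667 against 0.411 to 0.433, and the highest ratio of Srebf2, 0.222 against 0.180 to 0.183. In the nucleus at 60 min, it again had the highest ratio of all genes, 0.416 against 0.172 to 0.179, and the highest of Nodal, 0.249 against 0.0534 to 0.0735.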

How the results depend on the processing

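Centring each library on its median gene moved every count: 1682 members higher and 1367 lower between membrane and whole cells, 1482 and 1741 between cytosol and nucleus of the left-out libraries, and for new shares 2456 and 1948 in the cytosol, 2532 and 2045 in the membrane fraction and 2317 and 1653 in the nucleus. It turned the share difference of Sptbn1 (-0.26), Lima1 (-0.20) and Srebf2 (-1.68) in the cytosol, and of Sptbn1 (-0.65), Lima1 (-0.81), Srebf2 (-0.18) and Slc35b2 (-2.59) in the membrane fraction. Within replicates 3 and 4 the membrane comparison gave 30 higher and 4348 lower, and limma gave 13 higher in the left-out libraries. The replicate block gave 14 higher and 6682 lower for membrane and 16 and 6674 for the left-out libraries. Without the block, 12 members had older introns in the cytosol and 5 in the nucleus. Within replicates 1 and 2 these were 15 and 14, and within replicates 5 and 6 the nucleus gave 14. Of the leading 10 by cytosolic ratio, 6 remained with a threshold of 10000, 2 per base of intron and exon, and 6 within replicates 3 and 4. By cytosolic over nuclear ratio, 6 remained with a threshold of 50000 and 5 within replicates 3 and 4. The rankings within replicates were added after seeing the data.

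With each replicate left out, 8 to 9 of both leading sets remained. The counts were 14 to 17 higher and 6226 to 6744 lower for membrane, and for newer and older introns 6971 to 7002 and 19 to 25 in the cytosol, 7008 to 7066 and 17 to 19 in the membrane fraction, and 7039 to 7076 and 7 to 10 in the nucleus. For the left-out libraries this leaves 1 against 1 and no test. Single genes changed sign within replicates 5 and 6 (Zc3h13 -0.12 and Nespas -0.16 in the membrane comparison, Znrf3 0.028 in cytosolic share). Others did so within replicates 1 and 2 (1600020E01Rik 0.79, Bloc1s5 0.043 and Gm14409 1.00 in cytosolic share, Lcor 0.58 in nuclear share). Of all these, only Lcor passed the limits on size and adjusted p in its new direction. Slc35b2 in membrane share reversed at 40 to 120 min alone (-0.58) and within replicates 5 and 6 (-1.24), past the limits in both. Trpm1 reversed with limma (-0.55), the replicate block (-1.06) and within replicates 1 and 2 (-1.21), past the limits only in the last. Of 1238 alternative values for 89 results on single genes, 1096 were counted as unchanged, 111 lost the call, 12 gained it and 19 reversed. The 1096 include values of the left-out libraries that kept direction but had no test. They also include values called in neither fit, whatever their direction. The cause was not tested.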
